A study of Mus musculus with 4 samples.

Results

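The genes described here mark B cells and plasma cells, the antibody-producing line of the immune system. They were followed in the septal nasal mucosa of young adult mice (8 weeks) and aged mice (16 months). The 9 genes were fixed by name: 4 B cell genes (*Cd79a*, *Cd79b*, *Ms4a1* and *Pax5*) and 5 plasma cell genes (*Jchain*, *Mzb1*, *Xbp1*, *Pou2af1* and *Tnfrsf17*), out of 45616 genes tested. A probe was assigned to a gene through the RefSeq accession that the array gives for it. All 9 genes were found, *Xbp1* with 3 probes and the others with 1 probe each, which makes 11 probes.

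Both groups were male C57BL/6J mice, with no transgene or knockout named, and the titles set them apart by age alone. RNA was pooled from 5 mice per sample, and 2 samples per age were measured on 4 one-color Agilent arrays. The labels speak of experimental replicates, and the study's count of mice for gene analyses is smaller than 2 separate pools per age would need. The 2 samples of an age may therefore share mice or be the same pool, and the P-values measure only the spread between these samples, which may be technical. The sample labels call the tissue olfactory epithelium, and a further description, of silica aspiration and lung, fits neither the titles nor the study and was set aside. *Omp*, the marker of mature olfactory receptor neurons, was well above background on all 4 arrays.

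A resting B cell senses antigen with a surface antibody whose signal is passed inside by CD79A and CD79B. Once activated, it can become a plasma cell, which fills its endoplasmic reticulum with antibody and secretes it. In the nose and other mucosae the main product is IgA, made as a dimer that the J chain holds together. The dimer is carried across the epithelium by the polymeric immunoglobulin receptor. In a bulk sample, fewer cells of a type and less RNA per cell cannot be told apart.

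The first array of each age was on a common slide, called the shared slide here, and the second arrays were on separate slides. Local background had a median of 67 (young adult) and 63 (aged) on the shared slide, against 32 on young adult array 2 and 39 on aged array 2. Between 63.1 and 76.8% of the non-control spots were well above background. The normalized values correlated at r = 0.987 within each age and at 0.982 to 0.989 between ages, a correlation across genes, which are not independent replicates.

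None of the 9 genes differed between ages by the study's criteria, which are a P below 0.05 and a false discovery rate (FDR) below 0.25 in limma's moderated test over all genes. Of all genes tested, 3.98% passed these criteria, and 1.96% also met the added limits of the study for a differentially expressed gene, an expression of 100 and a fold change of 1.5, which 0 of the 9 met. At an unadjusted P below 0.05, 0 of the 9 passed, against 13.1% of all genes. Of the 9 genes, 6 had a lower and 3 a higher mean log2 value in aged mice. The median log2 fold change of aged over young adult mice was -0.09 for the 4 B cell genes and -0.08 for the 5 plasma cell genes, with 0.01 as the median of all genes. The intervals of the B cell genes were wider than those of the plasma cell genes. The data therefore limit a change more closely in the plasma cell genes than in the B cell genes. An exception is *Tnfrsf17*, which was well above background on 1 array only.

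**Figure D1:**
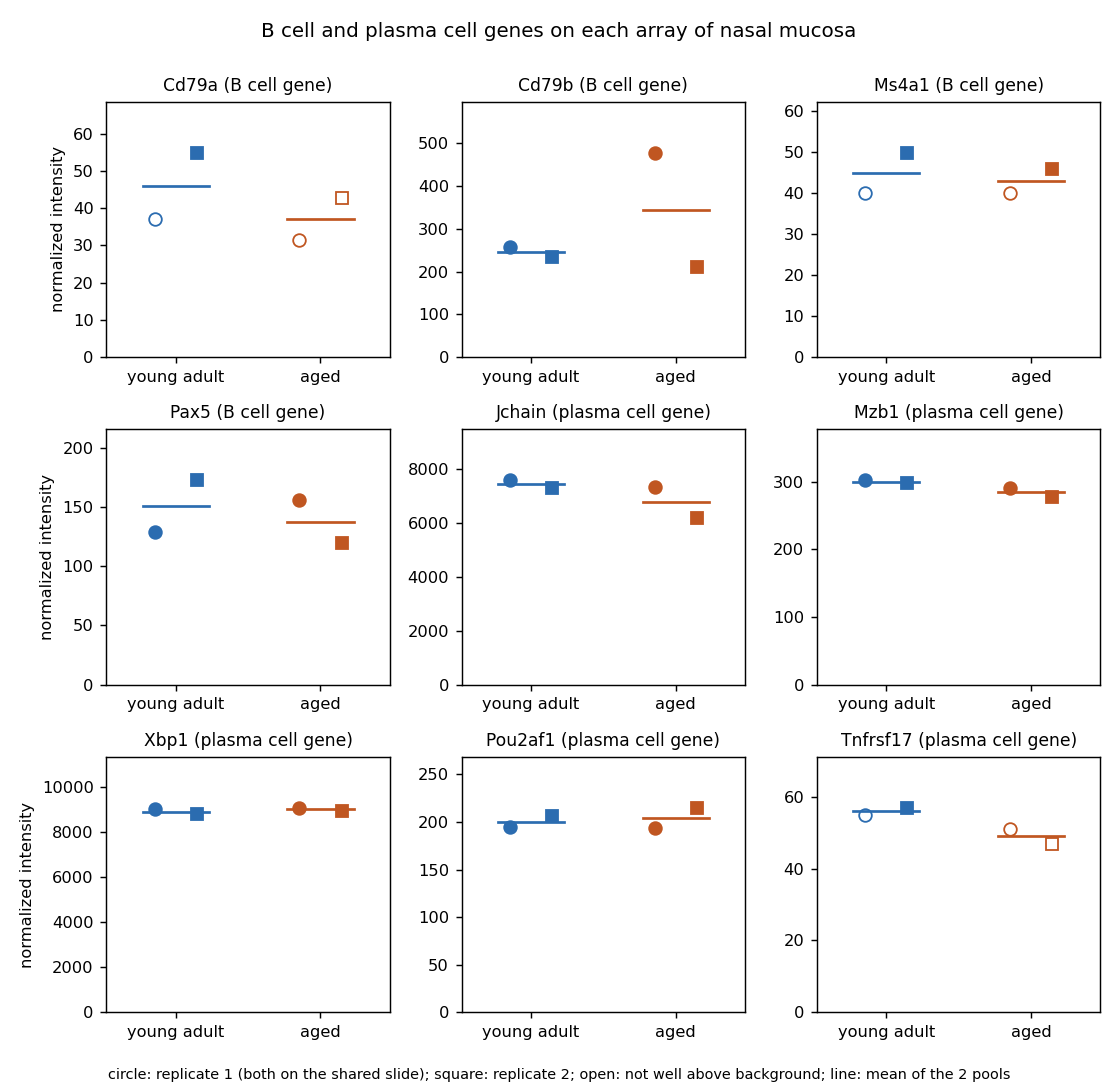
Normalized intensity (linear scale from 0) of each of the 9 genes on the 2 young adult arrays (blue) and the 2 aged arrays (orange), with a line at the mean of the 2 samples. Circles are replicate 1 of each age, which share a slide, squares are replicate 2, and open symbols were not well above background. *Cd79b* on aged array 1, at 478, is the value that stands farthest from its replicate.

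*Cd79a* encodes the immunoglobulin-alpha chain of the B cell receptor complex and is present in the B lineage from early precursors on. Its normalized intensity was 37.1 and 54.9 in the 2 young adult samples and 31.3 and 42.7 in the 2 aged samples. The ages overlapped, and the lower value of each age came from the shared slide. The spot was well above background on young adult array 2 and on none of the other 3 arrays: on young adult array 1 it read 84 over a local background of 73, and on aged array 1 it read 74.5 over 66.5. Neither aged array measured the gene well above background, so its level there is known only as a bound. The fitted log2 fold change was -0.30 (95% interval -1.16 to 0.55, FDR = 0.701 by limma).

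*Cd79b*, the immunoglobulin-beta partner of *Cd79a* in the same complex, was well above background on all 4 arrays. It measured 258 and 234 in young adult samples and 478 and 210 in aged samples. The aged samples lay on either side of the young adult samples, and aged array 1 was 1.18 higher than aged array 2 on the log2 scale. Among the 25513 genes whose mean reached 100, 0.439% had a gap between the 2 aged arrays as large as this. The spot on aged array 1 carried no outlier flag and read 481 over a local background of 40.0.

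The log2 fold change of *Cd79b* was 0.37 (95% interval -1.02 to 1.75, FDR = 0.773 by limma). Within the shared slide the difference was 0.89, and between the other arrays it was -0.16. Without aged array 1 the log2 fold change turned to -0.23. Without aged array 2 it was 0.96. The direction for *Cd79b* therefore rests on 1 array. Among the other B cell genes, *Pax5* was also higher on aged array 1 than on aged array 2, whereas *Cd79a* and *Ms4a1* were lower. Of the 21 further mature B cell genes on the array, 7 were higher there.

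*Ms4a1* encodes CD20, a surface protein of mature B cells that plasma cells lose. It measured 40.0 and 49.8 in young adult samples and 40.0 and 45.9 in aged samples. The ages overlapped, and the gene was well above background on array 2 of each age but not on either array of the shared slide. Its log2 fold change was -0.06 (95% interval -0.54 to 0.42, FDR = 0.900 by limma). Detection of this gene split by slide and not by age, and the part of slide background in its values was not tested.

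*Pax5* encodes the transcription factor that commits cells to the B lineage and is switched off in plasma cells. It measured 129 and 173 in young adult samples and 156 and 120 in aged samples, well above background on all 4 arrays. Aged array 1 lay between the young adult samples and aged array 2 below them. Its log2 fold change was -0.13 (95% interval -0.82 to 0.56, FDR = 0.837 by limma), with 0.27 within the shared slide and -0.53 between the other arrays.

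Among the plasma cell genes, *Jchain* encodes the joining chain of dimeric IgA and pentameric IgM. It measured 7595 and 7297 in young adult samples and 7358 and 6196 in aged samples, far above a local background of 32 to 66. Aged array 1 lay between the young adult samples, and aged array 2 was the lowest of the 4. The log2 fold change was -0.14 (95% interval -0.51 to 0.22, FDR = 0.678 by limma). On a linear scale this interval runs from 0.704 to 1.17 times the young adult level.

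*Mzb1* encodes a resident protein of the endoplasmic reticulum that assists antibody assembly in marginal zone B cells and plasma cells. It measured 302 and 297 in young adult samples and 291 and 278 in aged samples. Both aged samples lay below both young adult samples, as they did for 21.8% of all genes tested. Its log2 fold change was -0.08 (95% interval -0.31 to 0.16, FDR = 0.725 by limma).

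*Xbp1* encodes the transcription factor of the unfolded protein response that plasma cells need for secretion, and it also acts in gland cells. Averaged over its 3 probes it measured 9022 and 8763 in young adult samples and 9058 and 8932 in aged samples, with overlapping ages. Its log2 fold change was 0.02 (95% interval -0.21 to 0.24, FDR = 0.941 by limma), so that a change beyond 1.18-fold up or 0.865-fold down lay outside the interval. The probes A_52_P185079, A_55_P1994032 and A_55_P2739653 had log2 fold changes of 0.01, 0.05 and -0.01. The array files give no position of a probe in the transcript, so the spliced, active form of the mRNA was not told apart from the unspliced form.

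*Pou2af1* encodes OCA-B, a coactivator of the octamer-binding transcription factors in B cells and plasma cells. It measured 195 and 206 in young adult samples and 194 and 215 in aged samples, with the aged samples on either side of the young adult ones. The difference was 0.03 on the log2 scale (95% interval -0.27 to 0.32, FDR = 0.922 by limma).

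The promoter of *Pou2af1* is shown because it holds the one motif match found among the genes followed here. Promoters, from RefSeq on the GRCm38.p6 build, are windows of 300 bases that lie mostly before the annotated start, and 6 of the 9 genes had one in the table used. The octamer ATGCAAAT, the site to which OCA-B is recruited, and TGACGTGG, the unfolded protein response element bound by XBP1, were searched on both strands. They do not overlap each other. The octamer was in none of the 6 promoters and in 1.74% of the 32851 promoters of the table. The unfolded protein response element was in the promoter of *Pou2af1*, starting 61 bases before the annotated start, and in 0.676% of all promoters. A match describes letters and does not show binding. The promoter of *Jchain*, with no match, stands beside it for comparison. Capitals mark the motif.
Pou2af1, chr9:51213440-51213739, plus strand: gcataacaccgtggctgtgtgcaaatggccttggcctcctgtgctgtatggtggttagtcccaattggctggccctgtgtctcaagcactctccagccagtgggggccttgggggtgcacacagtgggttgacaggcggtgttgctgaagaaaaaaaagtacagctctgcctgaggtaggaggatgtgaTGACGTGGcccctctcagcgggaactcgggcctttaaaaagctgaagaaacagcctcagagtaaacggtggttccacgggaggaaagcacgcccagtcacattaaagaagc
Jchain, chr5:88527848-88528147, minus strand: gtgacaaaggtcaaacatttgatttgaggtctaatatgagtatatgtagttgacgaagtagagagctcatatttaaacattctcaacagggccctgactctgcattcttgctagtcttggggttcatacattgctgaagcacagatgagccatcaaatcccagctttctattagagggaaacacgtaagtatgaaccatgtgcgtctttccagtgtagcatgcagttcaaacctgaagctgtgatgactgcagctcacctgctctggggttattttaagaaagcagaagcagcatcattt

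*Tnfrsf17* encodes BCMA, the receptor through which long-lived plasma cells receive survival signals from APRIL. It measured 54.9 and 56.9 in young adult samples and 51.1 and 46.9 in aged samples. Both aged samples lay below both young adult samples, but the spot was well above background on young adult array 2 alone. Its level in aged mice is therefore known only as a bound. The fitted log2 fold change was -0.19 (95% interval -0.46 to 0.08, FDR = 0.495 by limma), the lowest FDR of the 9 genes.

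**Figure D2:**
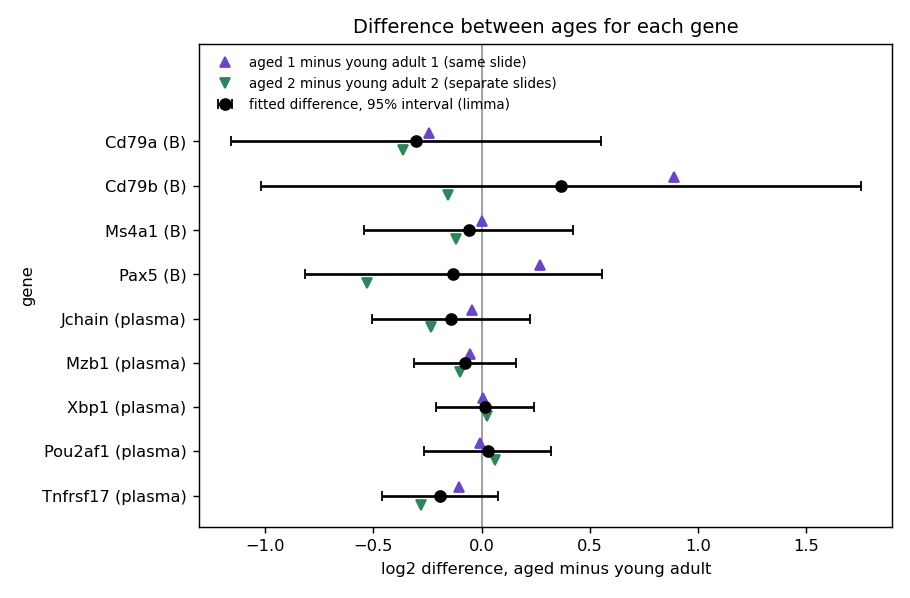
Log2 difference between aged and young adult mice for each gene (black points, with bars for limma's 95% interval), with the difference within the shared slide (purple) and between the other arrays (green). All 9 intervals include 0, and the 2 array pairs have opposite signs for *Cd79b*, *Pax5* and *Pou2af1*.

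The ages did not overlap for 2 of the 9 genes, *Mzb1* and *Tnfrsf17*, both lower in aged mice, against 46% of all genes tested in either direction. Between the 2 young adult samples, the gap on the log2 scale ran from 0.14 to 0.57 over the 4 B cell genes and from 0.02 to 0.08 over the 5 plasma cell genes. Between the 2 aged samples it ran from 0.20 to 1.18 and from 0.02 to 0.25, ranges that overlap. The median gap between young adult samples was 0.09 over genes whose mean reached 100 and 0.35 over dimmer genes. *Cd79a*, *Ms4a1* and *Tnfrsf17* were among the dimmer genes, at 41.5, 43.9 and 52.5.

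Likeness of pattern was described by the distance between log2 profiles centred over the 4 arrays, among 15370 named genes that were well above background on all of them. The genes nearest to the mean profile of the B cell genes were *Metap2*, *St8sia4* and *Zfp383* (distances 0.042, 0.051 and 0.051). Those nearest to the mean profile of the plasma cell genes were *Foxi1*, *Celf2* and *Cox7c* (0.0029, 0.0080 and 0.0094). With 4 arrays and profiles this flat, the list is a description only.

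The wider B lineage was followed with lists of genes. Of 21 other mature B cell genes on the array, 1 was called higher, 1 lower and 19 were not called, with a median log2 fold change of -0.10, and 13 were well above background on all 4 arrays. In comparison, 1.65% of all genes were called higher and 2.33% lower. *Spib*, an ETS transcription factor of B cells, plasmacytoid dendritic cells and epithelial M cells, rose from 241 and 209 in young adult samples to 333 and 343 in aged samples (log2 fold change 0.59, FDR = 0.243 by limma). *Btk*, the tyrosine kinase downstream of the B cell receptor that myeloid cells also use, fell from 80.1 and 70.1 to 50.8 and 47.4 (-0.61, FDR = 0.242).

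Both calls lay close to the FDR limit of 0.25, and neither held with 75th percentile scaling or with the processed signal. The call of *Btk* was also lost with the brightest probe and without dim probes. With a normexp offset of 50 the log2 fold change of *Btk* was -0.28. *Blnk*, the adaptor that links the B cell receptor to its kinases, was at 14497 and 15620 in young adult samples and 14346 and 14707 in aged samples (log2 fold change -0.05, FDR = 0.829). *Cd74*, the invariant chain of MHC class II in all antigen-presenting cells, was at 7740 and 8145 against 7712 and 7219 (-0.09, FDR = 0.708). The ages overlapped for *Blnk*, while both aged samples lay below both young adult samples for *Cd74*.

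Among 10 genes of B cell precursors, *Vpreb3* alone was called. For this list and the next, 1.65% of all genes were called higher and 2.33% lower. *Vpreb3*, named for its likeness to the surrogate light chain of precursor B cells, rose from 10795 and 10003 to 15692 and 15246 (log2 fold change 0.57, FDR = 0.213), a call that was lost with the processed signal. *Rag1* and *Rag2*, which cut antibody genes for rearrangement in precursor B cells, and the surrogate light chain gene *Igll1* were well above background on none of the 4 arrays. These 3 undetected genes were looked up after their values were seen. Of the 10 genes, 6 were well above background on all 4 arrays. Among them was *Vpreb1*, another surrogate light chain gene, also picked after its values were seen. It was at 225 and 94.4 in young adult samples and 87.4 and 98.4 in aged samples. Among 7 germinal centre genes *Rgs13*, a regulator of G protein signalling found in germinal centre B cells and in tuft cells, rose from 103 and 98.9 to 187 and 161 (0.78, FDR = 0.210), a call that was lost with 75th percentile scaling.

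Of 16 other plasma cell genes, 1 was called lower, 0 higher and 15 were not called. Over all genes, 2.33% were called lower and 1.65% higher. At an unadjusted P below 0.05 there were 4 of the 16, against 13.1% of all genes. The median log2 fold change was -0.20, and both aged samples lay below both young adult samples for 11 of the 16, against 21.8% of all genes. *Derl3*, which helps remove misfolded proteins from the endoplasmic reticulum of secretory cells, fell from 6023 and 6285 to 4256 and 4200 (-0.54, FDR = 0.209). *Txndc5*, a disulfide isomerase of the endoplasmic reticulum, was at 7552 and 7769 against 5810 and 6080 (-0.37, FDR = 0.272) and missed the limit.

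The number called in this list moved with the processing. When dim probes were left out it was 7 of the 13 genes that stayed, 6 of them lower, in a fit that called 7153 of 29504 genes. It was 0 with any array left out. A probe was not dim if it was well above background on both arrays of either age. A gene could therefore stay through the age where it was higher. *Slamf7*, one of the 6 and picked after its values were seen, was well above background on 1 aged array only. In that fit 7153 genes had an unadjusted P below 0.05, so the FDR limit removed none. *Sdc1* and *Cd38*, surface markers of plasma cells that other cells share, were also among the 6 and were picked after their values were seen. *Cd38* was at 225 and 310 in young adult samples and 172 and 181 in aged samples (log2 fold change -0.58, FDR = 0.378). *Sdc1* was at 476 and 520 against 419 and 433 (-0.22, FDR = 0.436).

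Other genes of the list lay the opposite way, and those named were also picked after their values were seen. *Eaf2*, a factor associated with transcription elongation, was at 3136 and 3286 in young adult samples and 4212 and 4300.0 in aged samples (log2 fold change 0.41, FDR = 0.252). It missed the FDR limit narrowly and was called higher with an offset of 50, cyclic loess, the brightest probe, an intensity trend and without dim probes. *Fcrl5*, an Fc receptor-like protein of B cells and plasma cells, had a log2 fold change of 0.23 (FDR = 0.526), which was -0.08 with its brightest probe alone. *Prdm1*, which encodes BLIMP1, the factor that directs plasma cell differentiation, had one of 0.11 (FDR = 0.651). For these 3 genes both aged samples lay above both young adult samples, as they did for 24.2% of all genes tested.

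*Derl3* and *Txndc5* also serve other cells that secrete much protein. Of 24 genes of the XBP1 and unfolded protein response pathway, 1 was called lower, 0 higher and 23 were not called, with a median log2 fold change of -0.06. Over all genes, 2.33% were called lower and 1.65% higher. Both aged samples lay below both young adult samples for 12 of the 24, against 21.8% of all genes, and above them for 5. Without dim probes 5 were called lower and 3 higher, and with an intensity trend 8 lower and 3 higher. *Edem1*, which directs misfolded glycoproteins to degradation and is a target of XBP1, fell from 885 and 924 to 602 and 623 (-0.56, FDR = 0.208).

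Of 17 genes of secretory glands, 9 were called lower and 2 higher, against 2.33% and 1.65% of all genes, with a median of -0.67. The largest falls in this list were those of *Pip* (-2.40), *Scgb1b20* (-2.32), *Scgb1b27* (-2.20) and *Muc5ac* (-2.10), which encode secreted proteins of nasal glands and goblet cells, while *Bpifb9b* (2.17) and *Muc5b* (0.44) rose. Another of the 9 that fell was *Bhlha15*, which encodes the secretory cell factor MIST1 and was picked after its values were seen, from 9565 and 9115 to 4461 and 4357 (-1.08, FDR = 0.178). The part of gland cells in the lower values of *Derl3* and *Edem1* was not tested.

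Genes of signals that act on B cells and plasma cells were listed together with genes of antibody transport and Fc receptors. Of 16 such genes on the array, 1 was called higher and 2 lower, and 13 were not called. Over all genes, 1.65% were called higher and 2.33% lower. At an unadjusted P below 0.05 there were 7, against 13.1% of all genes, and the median log2 fold change was -0.29. Both aged samples lay below both young adult samples for 8 of the 16, against 21.8% of all genes, and above them for 4. Without dim probes 1 was called higher and 7 lower of the 12 that stayed. That fit called 7153 of 29504 genes. *Il6*, a cytokine that supports plasma cells among many other actions, rose from 32.9 and 39.3 to 113 and 116 (log2 fold change 1.67, FDR = 0.178). It was well above background on 1 young adult array, and its log2 fold change moved to 0.94 when the offset was 50 and to 2.93 with the processed signal. *Ccl21a*, which guides lymphocytes bearing CCR7 into lymphoid tissue, fell from 16571 and 17608 to 11715 and 11681 (-0.55, FDR = 0.211). *Fcer1g*, the signalling chain shared by several Fc receptors of myeloid cells, fell from 2497 and 2569 to 1405 and 1556 (-0.78, FDR = 0.196).

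The chemokines and the transporter closest to mucosal antibody were picked after their values were seen, and none was called in the fit reported here. *Ccl28*, which draws IgA plasma cells to mucosae, was at 634 and 601 in young adult samples and 549 and 495 in aged samples (-0.24, FDR = 0.438), and was called lower without dim probes and with an intensity trend. *Pigr*, the polymeric immunoglobulin receptor, was at 7011 and 6396 against 6521 and 6922 (0.00, FDR = 0.986). *Cxcl13*, which draws B cells into follicles, was at 56.3 and 34.1 against 65.7 and 112 (0.97, FDR = 0.458), and was well above background on 1 young adult array and both aged arrays. It was called higher with an intensity trend and with the processed signal (1.72, FDR = 0.225).

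No probe could be assigned, by the RefSeq accessions used here, to any of the 12 immunoglobulin constant region genes sought. Antibody transcripts were therefore not analysed here, which does not show that the array lacks probes for them. Beside these results, 0 of 11 T cell genes were called, with a median log2 fold change of -0.11. Over all genes, 2.33% were called lower. Of 10 macrophage genes 3 were called lower, *Cd68* (-0.78), *Mrc1* (-0.65) and *C1qc* (-0.43), with a median of -0.34. Of 11 granulocyte genes of the bone marrow 4 were called lower, *S100a9* (-1.08), *S100a8* (-1.07), *Ngp* (-0.71) and *Ltf* (-0.67), with a median of -0.50. The 7 not called included *Elane*, *Mpo*, *Prtn3* and *Ctsg*. *Ltf* also stands in the gland list. The differences between these lists and the B lineage genes were not tested.

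**Figure D3:**
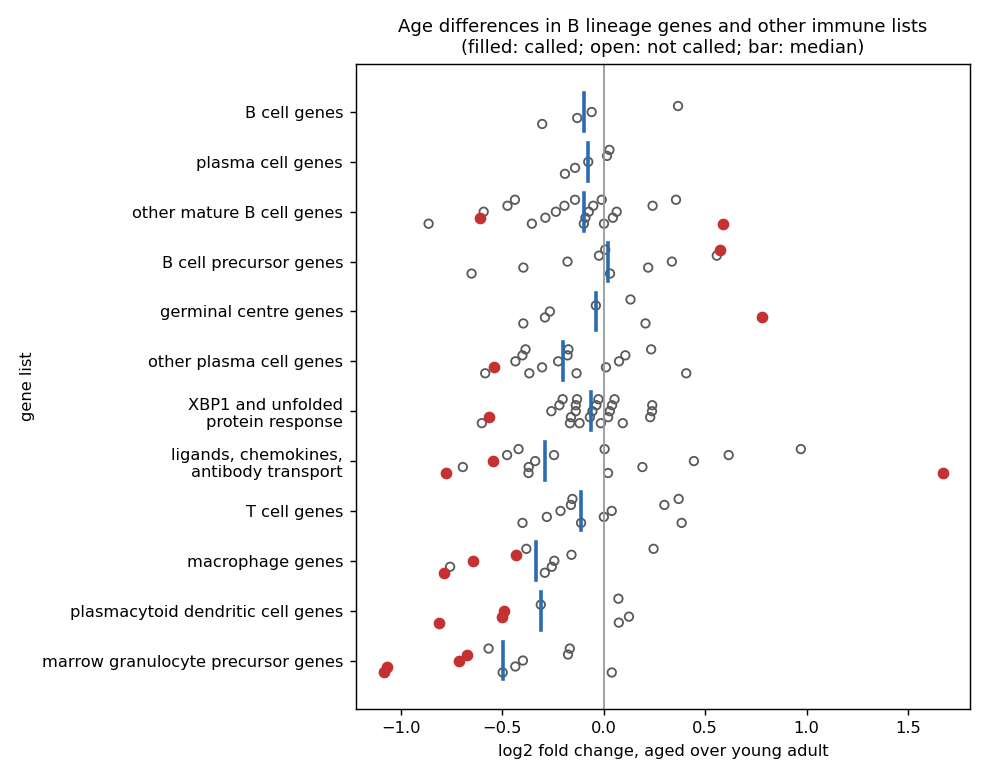
Log2 fold change of aged over young adult mice for each gene of 12 lists, with filled red points for genes that passed the P and FDR criteria, open points for the others and a blue bar at each list's median. The 9 B cell and plasma cell genes hold no filled point, and the medians run from 0.02 in B cell precursor genes to -0.50 in marrow granulocyte genes.

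Across the 9 other fits that kept all 4 arrays, none of the 9 genes passed the P and FDR criteria. The fit without dim probes tested 2 of the 4 B cell genes and 4 of the 5 plasma cell genes. The number of genes called over the whole array ranged from 0 to 7153 in these fits. It was 0 with the replicate block, which could therefore pass none of the 9 genes. For the 9 genes, the 4 fits that left out an array, with 1 sample in an age, give effect sizes only. Over all 13 fits, the log2 fold change of *Xbp1* stayed between -0.01 and 0.05 and that of *Jchain* between -0.26 and -0.02. That of *Cd79b* ran from -0.23 to 0.96.

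**Figure D4:**
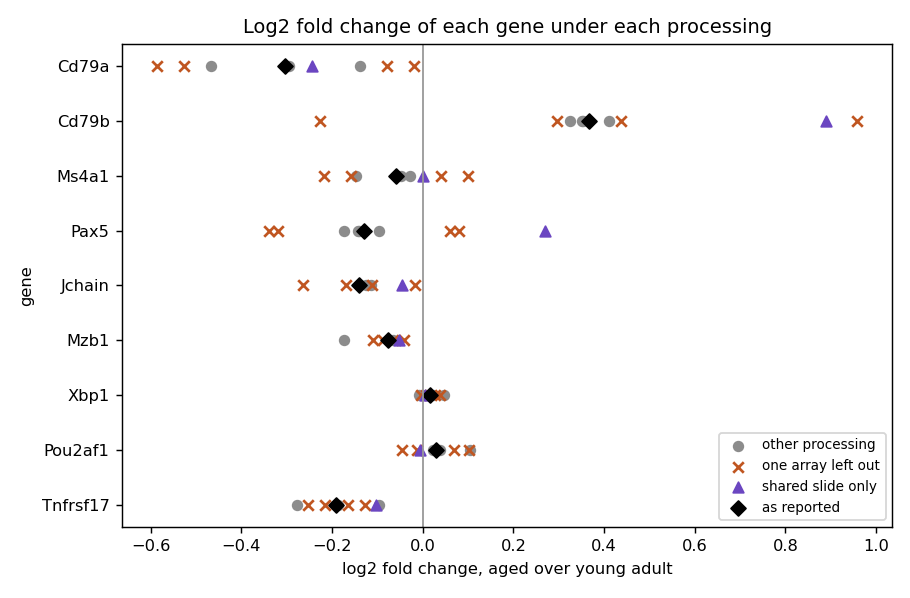
Log2 fold change of each gene as reported (black diamonds), under other ways of processing (grey), with one array left out (orange crosses) and within the shared slide (purple). The values of *Xbp1* stay closest together, and those of *Cd79b* spread from -0.23 to 0.96.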

How the data were processed

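Cy3-labelled RNA of nasal mucosa was hybridized to Agilent SurePrint G3 Mouse GE arrays, 1 array per sample. The authors extracted the spots with Feature Extraction 11.0.1.1, and the submitters' processing notes also name R 3.2.1. The deposited intensity values are the median brightness of each spot and of its local background, a processed intensity with the background subtracted, and quality flags, none of them normalized between arrays. The deposited series table repeated the processed intensity for all 62976 spots.

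With limma 3.58.1 (R 4.3.3), median intensities received a normexp background correction with an offset of 0. Mean spot intensities were not used here. Control spots and 88 to 118 flagged spots per array were left out, spots of a probe averaged, log2 values quantile normalized, and probes of a gene averaged. Of 56605 probes, 32989 carried an accession found, ignoring its version, in the RefSeq gene table of GRCm38.p6. The array design uses another build. No spot was saturated.

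Ages were compared with limma (lmFit, eBayes) on all 4 arrays without covariates. Calls needed an FDR below 0.25 besides a P below 0.05. With 2 arrays against 2, an exact permutation test of 1 gene cannot go below 0.333, and the number of arrays limits the precision. Named were the 9 genes, the up to 4 largest calls per list and direction, the 2 brightest genes of the other mature B cell and plasma cell lists, the 3 nearest profiles, and genes named in the text as picked after their values were seen. The 9 genes and the lists were chosen with earlier results of these data known. The alternatives were an offset of 50, the processed signal, 75th percentile scaling, cyclic loess, leaving out dim probes, the brightest probe per gene, keeping flagged spots, an intensity trend, a replicate block, the shared slide alone and each array left out. A probe counted as dim unless it was well above background on both arrays of either age.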

Additional observations from a re-analysis of the deposited data

How the results depend on the processing

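With 2 arrays per age and dim spots near background, the precision is limited, most of all for *Cd79a*, *Ms4a1* and *Tnfrsf17*. The numbers of B cell genes and of plasma cell genes called were 0 in all 9 alternative fits that kept the 4 arrays. One of these, the replicate block, called 0 genes over the whole array and could pass none. The number of other mature B cell genes called (2) was 1 with the processed signal, 0 with 75th percentile scaling and 3 with an offset of 50, cyclic loess or an intensity trend. With the processed signal the 1 was *Bank1*, and without dim probes the 2 were *Cd72* and *Spib*. The number of other plasma cell genes called (1) was 4 with an offset of 50, 2 with cyclic loess, 7 without dim probes, 3 with the brightest probe per gene and 6 with an intensity trend. Both numbers were 0 with the replicate block and 0 in each of the 4 fits that left out an array. Over all genes, the calls were 1817 as reported, 4585 with an offset of 50, 7153 of 29504 without dim probes and 7124 with an intensity trend, and 0 with the replicate block or any array left out, where 3289 to 5317 genes had an unadjusted P below 0.05. The median log2 fold change of the plasma cell genes (-0.08) was -0.11 with the processed signal and -0.030 without dim probes. That of the B cell genes (-0.09) was 0.12 without dim probes, which left 2 of the 4 genes, and 0.13 within the shared slide. With an array left out it ran from -0.28 to 0.09, and that of the plasma cell genes from -0.11 to -0.04. The cause was not tested.

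Signs turned for small differences. With an array left out, the log2 fold change ran from -0.23 to 0.96 for *Cd79b* (-0.23 without aged array 1), -0.22 to 0.10 for *Ms4a1*, -0.34 to 0.079 for *Pax5*, -0.0044 to 0.038 for *Xbp1*, -0.046 to 0.10 for *Pou2af1*, -0.10 to 0.0028 for *Blnk*, -0.061 to 0.071 for *Pigr* and -0.62 to 0.00078 for *Siglech*. With the processed signal it was -0.0074 for *Xbp1* and -0.0041 for *Pigr*. Without dim probes, and equally with the brightest probe per gene, it was 0.010 for *Siglech* and -0.080 for *Fcrl5*. Within the shared slide it was 0.27 for *Pax5*, -0.0052 for *Pou2af1* and -0.10 for *Pigr*. Samples with the same replicate number share only a number beyond the shared slide of replicate 1 (correlation of deviations across genes -0.078). The replicate block called 0 of 45616 genes, so it could not tell whether replicate number bears on the calls of the 9 genes. Slide as a random block could not be fitted with 3 slides on 4 arrays. No count was possible for immunoglobulin constant genes.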

Other observations

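Plasmacytoid dendritic cells share several genes with the B lineage, and their list held both called and uncalled genes. Of its 7 genes, 3 were called lower in aged mice and 0 higher, against 2.33% and 1.65% of all genes. *Irf7*, a master regulator of type I interferon production, fell from 1171 and 1191 in young adult samples to 658 and 687 in aged samples (log2 fold change -0.81, FDR = 0.183 by limma). *Irf8*, a transcription factor of dendritic cells and B cells, fell from 718 and 771 to 530 and 528 (-0.49, FDR = 0.233), and *Bst2*, an interferon-induced surface protein, from 2825 and 2986 to 2036 and 2070 (-0.50, FDR = 0.221). *Siglech*, the marker that defines these cells in mice, picked after its values were seen, was at 1926 and 1936 against 1256 and 1932 (-0.31, FDR = 0.656), with aged array 1 apart from the other 3. Of 12 olfactory neuron genes, 1 was called higher, *Stoml3* (0.43, FDR = 0.243), against 1.65% of all genes. All 12 had both aged samples above both young adult samples, against 24.2% of all genes tested.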
